A study of Homo sapiens with 8 samples.

Results

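PDCD4 (programmed cell death 4) is a tumour suppressor gene on chromosome 10, and its RFX7 ChIP-seq peaks were taken as all listed peaks within 10 kb of its gene body. By this rule PDCD4 had 1 of the 1790 peaks of the series, 1 of 1234 in cells treated with Nutlin-3a and 0 of 556 in cells treated with DMSO. By the same distance, 1.35% of protein-coding genes had a Nutlin-3a peak and 0.0649% had a DMSO peak. RPE-1, an established line of human retinal pigment epithelial cells, received 10 µM Nutlin-3a or the solvent DMSO for 24 h. For each treatment the labels give 2 samples precipitated with an RFX7 antibody and 2 input samples. A single peak list stands for each treatment, so no value below has a replicate error, and no test between the treatments was possible. Read depth is unknown from the lists. The comparison asks where the transcription factor RFX7 was detected on the genome with and without Nutlin-3a.

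PDCD4 protein inhibits the start of translation by binding the RNA helicase EIF4A1 through its MA3 domains, which keeps the helicase from working with the scaffold protein EIF4G1. The kinase RPS6KB1 marks PDCD4 for destruction by the ubiquitin ligase that contains BTRC, and the microRNA of MIR21 represses its mRNA. RFX7 belongs to the regulatory factor X family, whose members bind the X-box, a DNA element built from copies of a short half-site. Nutlin-3a blocks the binding of MDM2 to p53 and so stabilises p53.

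The PDCD4 peak covered the annotated start of the gene. It spanned chr10:110871596-110872610 (hg38), a width of 1015 bp, with a fold enrichment of 8.17, a −log10 p of 64.1 and a −log10 q of 59.0. These are the authors' own values for the peak. RefSeq places PDCD4 on the plus strand at 110871928 to 110900006 of chromosome 10 (GRCh38.p14). The summit, the base that the list marks as the top of the peak, was at 110871931, which is 3 bp inside the gene. Whether it is the base with the highest signal could not be checked without reads. Distances to summits below take the listed positions. The peak reached 332 bp upstream and 682 bp downstream of the start site, and its middle lay 175 bp downstream. Exon and intron annotation was not used here.

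The 300 bases from 250 bp upstream to 50 bp downstream of the start site, which RefSeq gives for PDCD4 (GRCh38.p14, plus strand, chr10:110871678-110871977), lay wholly inside the peak and hold its summit. They are shown because they are the sequence at the summit, and they make up 29.6% of the peak. The remaining 715 bases of the peak were not examined. Windows of 4 other genes stand beside it for comparison, all on the plus strand of GRCh38.p14. They are DDIT4 (chr10:72273674-72273973), whose peak was the only other one with fold enrichment, −log10 p and width all at least as large, and RMND5A (chr2:86720041-86720340), TCAIM (chr3:44337879-44338178) and NUP42 (chr7:23181798-23182097), whose peaks were among those most like the PDCD4 peak. Capitals mark CCAAT and the X-box half-site core GTTGC on either strand.
PDCD4: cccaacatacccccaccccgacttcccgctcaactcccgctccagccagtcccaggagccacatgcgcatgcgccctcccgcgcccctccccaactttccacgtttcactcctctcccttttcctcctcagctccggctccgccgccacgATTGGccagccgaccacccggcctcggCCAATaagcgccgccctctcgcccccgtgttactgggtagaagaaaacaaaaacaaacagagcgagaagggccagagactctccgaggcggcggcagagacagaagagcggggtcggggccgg
DDIT4: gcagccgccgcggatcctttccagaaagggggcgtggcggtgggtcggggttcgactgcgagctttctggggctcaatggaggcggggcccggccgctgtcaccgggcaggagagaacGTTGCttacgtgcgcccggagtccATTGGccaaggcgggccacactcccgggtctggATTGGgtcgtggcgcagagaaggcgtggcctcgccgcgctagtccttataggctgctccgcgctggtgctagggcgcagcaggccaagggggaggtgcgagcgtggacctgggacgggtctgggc
RMND5A: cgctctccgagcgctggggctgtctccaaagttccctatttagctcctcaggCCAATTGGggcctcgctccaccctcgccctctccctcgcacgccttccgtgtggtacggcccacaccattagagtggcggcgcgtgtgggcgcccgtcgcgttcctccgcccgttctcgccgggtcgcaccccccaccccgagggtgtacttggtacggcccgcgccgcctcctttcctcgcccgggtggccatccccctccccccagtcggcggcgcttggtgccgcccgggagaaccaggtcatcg
TCAIM: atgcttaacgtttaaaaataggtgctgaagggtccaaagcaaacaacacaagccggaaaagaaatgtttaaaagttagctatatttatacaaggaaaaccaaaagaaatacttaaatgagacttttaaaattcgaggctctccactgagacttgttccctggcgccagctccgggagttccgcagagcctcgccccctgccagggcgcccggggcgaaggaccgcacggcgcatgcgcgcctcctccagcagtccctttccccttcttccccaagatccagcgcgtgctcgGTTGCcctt
NUP42: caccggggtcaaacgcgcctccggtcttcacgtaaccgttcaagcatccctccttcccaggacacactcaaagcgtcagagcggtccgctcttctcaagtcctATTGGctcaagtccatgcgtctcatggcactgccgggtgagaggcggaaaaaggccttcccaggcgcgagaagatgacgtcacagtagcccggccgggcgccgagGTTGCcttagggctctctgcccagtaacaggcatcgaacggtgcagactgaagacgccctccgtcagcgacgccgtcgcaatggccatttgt

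The RFX half-sites, in the spellings given next, were not found in the PDCD4 window. The letters searched on both strands were GTTGCC, which 12.6% of 22078 windows at protein-coding start sites hold, GTTGCCA (4.0%), GTTGCTA (2.84%) and the X-box palindrome, in which GTTGCC faces its reverse complement across any bases NN (0.104%). None was present. GTTGCC is the start of GTTGCCA and of the palindrome, so these matches overlap. The p53 half-site, found in 6.23% of windows, and the TATA box letters TATAAA, found in 9.50%, were absent too. GTTGC, a shorter core that is part of all the RFX spellings above but not of the p53 half-site, was in 33.8% of windows. It was in 38 of the 62 windows that hold a Nutlin-3a summit (61.3%), but not in that of PDCD4. It occurred once in the window of DDIT4, once in that of NUP42 and once in that of TCAIM, 28, 49 and 96 bp from the summits there, and RMND5A, like PDCD4, had none. The absence says only that these letters are not in these 300 bases.

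The PDCD4 window held CCAAT at 2 places, in opposite directions, at positions −100 to −96 and −73 to −69 from the start site, which are 99 and 72 bp from the summit. CCAAT boxes are bound by the factor NF-Y. The comparison windows held 2 matches at DDIT4, 2 at RMND5A, also in opposite directions, 1 at NUP42 and 0 at TCAIM. The letters were present in 34.7% of all windows, and in 39 of the 62 windows that hold a Nutlin-3a summit (62.9%). GTTGCC was in 19 of these 62 windows (30.6%) and GTTGCTA in 10 (16.1%), so PDCD4 belonged to the windows with a summit and CCAAT but without these half-sites. GGGCGG, the GC box, occurred once at −63 to −58 on the minus strand, as in 56.3% of all windows by either strand. TGCGCAT, a core of the site of the factor NRF1, occurred on both strands with the matches overlapping, at −188 to −182 and −187 to −181. It was in 3.36% of all windows and in 5 of the 62 with a summit (8.06%). It was searched after the sequence had been seen, as were GTTGC and GTTAC. The last of these, which differs from GTTGC in 1 letter, occurred once, at −45 to −41, 44 bp from the summit. GTTAC is in 18.8% of all windows and in 6 of the 62 with a summit (9.68%). The GC content of the PDCD4 window was 65.7%, against a median of 62.3% over all windows and 65.7% over those with a summit. It held 26 CpG pairs, against medians of 21 and 25.5.

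The peak stood alone on its stretch of chromosome 10. No other region of either list lay within 500 kb. The nearest other Nutlin-3a summit was 8626431 bp away and the nearest DMSO summit 15054492 bp away. On chromosome 10 the lists held 106 Nutlin-3a and 38 DMSO peaks, of which 39 and 6 were outside clusters, a cluster being a place with at least 5 other listed regions within 500 kb. Only 4 Nutlin-3a peaks and 0 DMSO peaks of this chromosome had a summit within 1000 bp of the first or last base of a protein-coding gene. By fold enrichment they were at DDIT4 (14.2), PDCD4 (8.17), PPRC1 (7.27) and CDNF (4.08). By the start sites of the promoter table there was 1 more, at GBF1, with its summit 32 bp upstream of a start site inside the gene body and 4.53-fold. It is the peak nearest to that of PDCD4 in the list.

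The genes next to PDCD4 had no peak other than this one, which also lay within 10 kb of PDCD4-AS1 and LOC124902500. PDCD4-AS1, a long non-coding RNA gene on the opposite strand, starts 1027 bp upstream of the summit, and the peak began 692 bp from that start. The nearer end of the lncRNA gene LOC124902500 lay 5148 bp upstream of the peak. BBIP1, which codes for a BBSome subunit needed at cilia, overlaps the last 1277 bp of PDCD4 and is read from the opposite strand. Its furthest start site lay 47435 bp from the summit, next to that of SHOC2, a scaffold of RAS signalling, at 47439 bp. RBM20, a splicing factor gene, ended 32128 bp upstream of the peak. The microRNA gene MIR4680, inside PDCD4 near its far end, lay 25480 bp from the peak. The map of the locus shows the peak at the PDCD4 start and nowhere else within the shaded stretch.

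**Figure D1:**
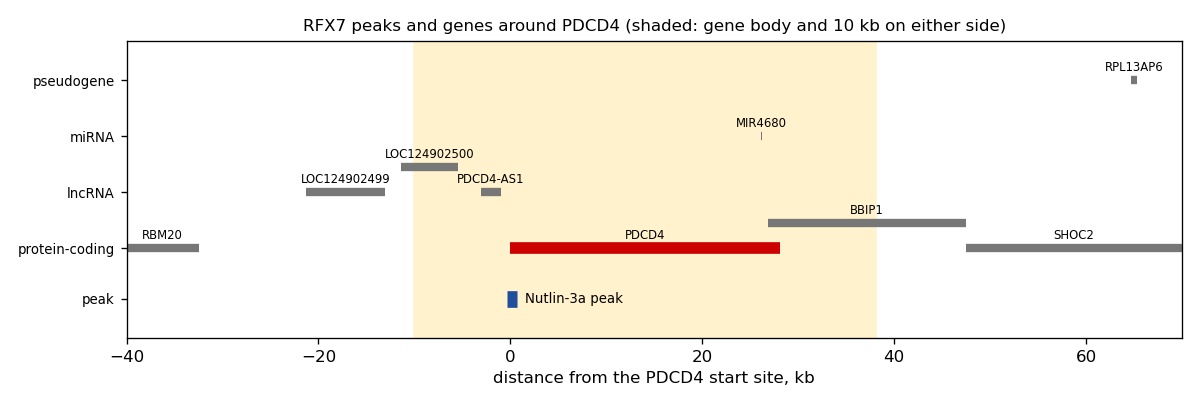
Genes and listed RFX7 peaks around PDCD4, in kb from its start site, with the gene body and 10 kb on either side shaded. The single peak, of the Nutlin-3a list, covers the start of PDCD4, and the DMSO list has none in the stretch drawn.

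PDCD4 ranked high in its list by width and fold enrichment and lower by −log10 p. By fold enrichment it was number 44 of 1234 Nutlin-3a peaks, at 2.95 times the median of 2.77. By −log10 p it was number 245, with a median of 23.8 for the list. By width it was number 8, at 6.30 times the median of 161 bp. Many peaks of the list were at or just above 50 or 150 bp wide, for a reason not known here, which bears on this median. Clustered peaks account for most of the −log10 p values above that of PDCD4, since only 50 of these 244 peaks were outside clusters. Among the 425 peaks outside clusters PDCD4 was number 38 by fold enrichment, number 51 by −log10 p and number 7 by width. The medians there were 4.0 for fold enrichment, 13.5 for −log10 p and 178 bp for width.

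The comparison narrowed when only peaks at genes were kept. There were 101 Nutlin-3a peaks whose summit was at most 1000 bp from the first or last base of a protein-coding gene, called boundary peaks here. Among them PDCD4 was number 20 by fold enrichment, number 24 by −log10 p and number 4 by width. Their medians were 5.08, 27.2 and 345 bp. The peaks just above it by fold enrichment were at TSPYL2 (8.60, 243 bp wide), a nucleosome assembly gene, and ZNF490 (8.85, 408 bp wide), a zinc finger gene. The peaks just below were at CKS2 (7.97, 408 bp wide), which codes for a cyclin-dependent kinase subunit, and CDK4 (7.67, 314 bp wide), a kinase of the early cell cycle. All 4 were less than 500 bp wide, against 1015 bp at PDCD4. Their −log10 p was 38.9 at TSPYL2, 62.7 at ZNF490, 42.1 at CKS2 and 34.3 at CDK4, below the 64.1 at PDCD4. Start sites give a different set, of 103 peaks with the summit within 1000 bp of one. There PDCD4 was number 20 by fold enrichment, number 19 by −log10 p and number 5 by width.

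**Figure D2:**
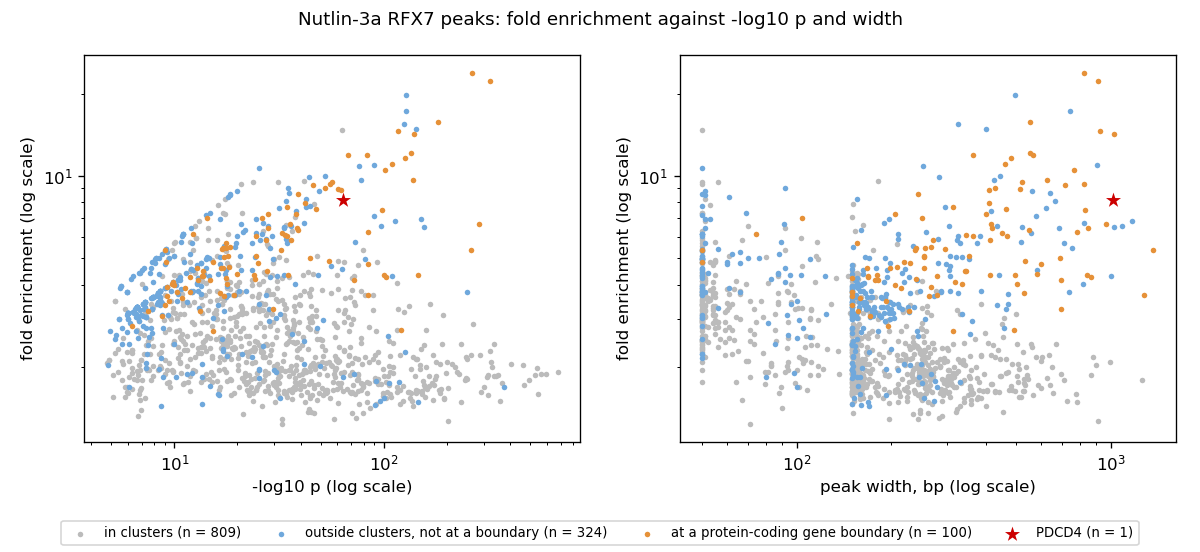
Each point is 1 of the 1234 Nutlin-3a peaks, with fold enrichment on a log axis against −log10 p (left) and width in bp (right), both on log axes. PDCD4 (star) lies near the right edge by width, number 8 of 1234, and among the higher peaks by fold enrichment, number 44, while many clustered peaks exceed its −log10 p.

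Few peaks matched it on all measures at once. Of the Nutlin-3a peaks, 20 with PDCD4 included had both fold enrichment and −log10 p at least as large. With width added, the only peaks were those of PDCD4 and DDIT4, an inhibitor of mTORC1 signalling, at 14.2-fold, −log10 p 139 and 1025 bp. This search was made after the values had been seen. The wider peaks nearest to PNRC1, MXD4, PIK3R3 and CD83 had a larger −log10 p but a lower fold enrichment. Their summits were listed 4.35%, 5.94%, 6.54% and 2.69% of the way from the left edge. The same held for those nearest to ADAMTSL4 and SHCBP1, with summits at 13.0% and 83.2%. Whether fold enrichment and −log10 p describe the same base in a wide peak was not tested, which limits the joint standing of PDCD4. The 5 peaks outside clusters most like that of PDCD4 in all 3 measures were at or near RMND5A, TCAIM, ADAMTSL4, NUP42 and CCND1. RMND5A, part of a ubiquitin ligase complex, was nearest, with 9.38-fold, −log10 p 55.4 and 819 bp. TCAIM, a mitochondrial protein gene, had 7.52-fold, −log10 p 98.4 and 825 bp. NUP42, a nuclear pore gene, had 9.29-fold, −log10 p 45.8 and 716 bp. The summits of these 3 were 55 to 91 bp upstream of the start sites. CCND1, which codes for cyclin D1, had its summit 2347 bp from a boundary, with 6.71-fold, −log10 p 41.4 and 820 bp. The peak assigned to ADAMTSL4, an extracellular matrix gene, was 1052 bp from a boundary, with 6.57-fold, −log10 p 96.8 and 1087 bp. None of the 5 overlapped a DMSO peak. Likeness here is the distance between standardised log10 values.

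The summit of PDCD4 lay closer to the start site than most. Among 103 Nutlin-3a peaks with the summit within 1000 bp of a protein-coding start site, the median distance was 133 bp (interquartile range 77.5 to 241.5). SOX4, a developmental transcription factor gene, was the only one closer than PDCD4, with its summit at the start site, a fold enrichment of 3.99 and a width of 205 bp. The start sites used lack some chromosomes and genes, TP53INP1 and CCND1 among them, so the 103 peaks are a partial set. Of the 103 summits 69 were upstream and 34 were downstream or at the start, with a median of −85 bp. The distance is measured to the start site in the RefSeq table, and other starts of PDCD4 were not examined. It also rests on the listed summits, which in many wide peaks sit at the left edge, as described below.

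**Figure D3:**
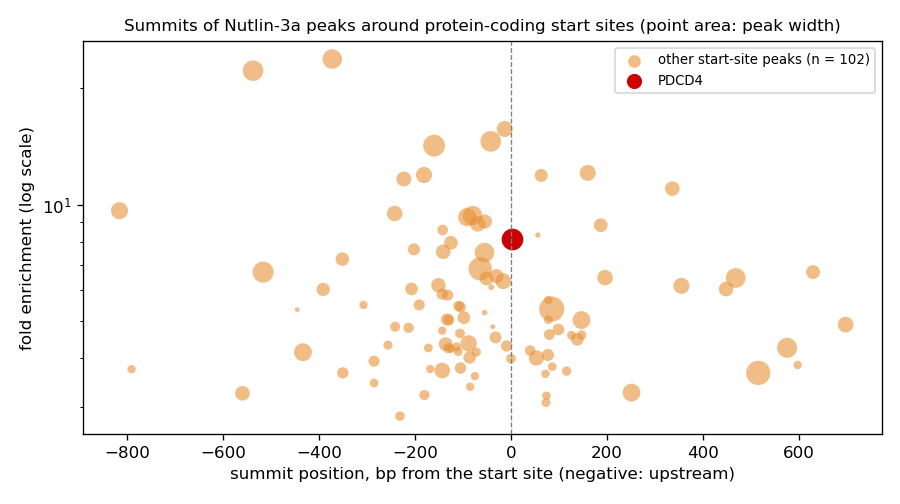
Summit position in bp from the nearest protein-coding start site (negative is upstream) against fold enrichment on a log axis for the 103 Nutlin-3a peaks within 1000 bp, with point area proportional to peak width. PDCD4 is 3 bp from the start, where most other summits are upstream, with a median of −85 bp.

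No DMSO peak was listed at PDCD4, and this was usual for peaks at genes. Of all Nutlin-3a peaks 72.7% had no overlapping DMSO peak. The share was 91.8% outside clusters, 95.3% among the 43 peaks with fold enrichment above that of PDCD4, and 99.0% among the 101 peaks at protein-coding boundaries. PDCD4 shared the lack of a DMSO call with nearly all of these, 100 of the 101. The DMSO list held 7 peaks with a fold enrichment at or above that of PDCD4, with a median width of 50 bp. Outside clusters its largest fold enrichment was 8.11 and its widest peak 365 bp. The lists give no signal for a place without a call, so the RFX7 signal at PDCD4 in DMSO was not detectable from them. A lower occupancy and a lower sensitivity of the DMSO experiment cannot be told apart.

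A peak within 10 kb of the gene body was uncommon among genes. In the Nutlin-3a list 270 of 20037 protein-coding genes had one, and 13 did in the DMSO list. With a summit within 1000 bp of a boundary the shares were 0.569% and 0.00499%. PDCD4 met both rules in the Nutlin-3a list and neither in the DMSO list.

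The partners and regulators of PDCD4 had no such peak. Of 12 genes for factors that act at the mRNA cap, among them EIF4A1, EIF4A2 and EIF4G1, 0 had a peak within 10 kb in either list. The nearest Nutlin-3a peaks to this list were 36023 bp from EIF4A1, 37222 bp from EIF4B, a helper of the helicase, and 39288 bp from EIF4EBP2, a repressor of cap binding. Of the 12 genes that control the amount of PDCD4, 0 had a peak in either list. The nearest Nutlin-3a peak lay 452520 bp from the kinase gene AKT1, 473517 bp from RBX1, a ubiquitin ligase subunit, 509506 bp from MIR21, 561361 bp from RPS6KB1 and 562199 bp from BTRC. Among the 6 genes with MA3 domains PDCD4 was the only one with a peak, and the other 5, the scaffolds EIF4G1, EIF4G2 and EIF4G3 and the genes NOM1 and CWC22, had none, the least distant being 1178143 bp from NOM1. Counts of 0 in lists of 12 or fewer genes are what a background of 1.35% would mostly give.

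AP-1 is a transcription factor whose activity PDCD4 is known to inhibit. Of 8 AP-1 genes, counting the upstream kinase MAP4K1, 1 had a Nutlin-3a peak within 10 kb and 0 had a DMSO peak. Over all protein-coding genes these shares were 1.35% and 0.0649%, and no link is drawn from 1 gene. The gene with the peak was JUNB, with 6.22-fold, −log10 p 84.4 and 780 bp, 71 bp past the end of the gene. FOS had its nearest at 19205 bp. Of 10 genes that carry the PDCD symbol, which are not a family by sequence, PDCD4 was again the only one with a peak. PDCD10 had its nearest Nutlin-3a peak at 86193 bp.

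PDCD4 was compared with 17 other genes of a list of RFX7 targets, RFX7 itself among them. The genes were recalled from the literature, which may include work on these same samples. The list is also that of a report on this whole series, and it was chosen with earlier results of these data known. It is therefore not independent evidence. Within 10 kb, 17 of the 18 genes had a Nutlin-3a peak, all but RFX7, and 1, PNRC1, had a DMSO peak. Over all protein-coding genes the shares were 1.35% and 0.0649%. Given how the list was chosen, its high count is not a result about its genes. By its best peak PDCD4 was number 3 of 17 in fold enrichment, after DDIT4 (14.2) and TSPYL2 (8.60), while the others had a median of 6.14 and went down to 3.26 at the DNA polymerase gene REV3L. By width it was number 5, after PNRC1 (1367 bp), MXD4 (1271 bp), PIK3R3 (1170 bp) and DDIT4 (1025 bp), against a median of 800 bp. By −log10 p it was number 9, with 64.1 against a median of 62.9, and PNRC1, a nuclear receptor coactivator gene, had the largest at 259.6. MXD4, an antagonist of MYC, had −log10 p 84.4 at a listed fold enrichment of 3.67, less fold enrichment but a larger −log10 p than PDCD4. The same fold enrichment came with −log10 p 19.3 in a 279 bp peak elsewhere in the list. The MXD4 values may therefore not describe the same base, and the rank of PDCD4 by fold enrichment has the same limit.

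The peaks of these genes differed in where the summit lay. At PDCD4 it was 33.1% of the way from the left edge, near the median of 30.3% for 110 Nutlin-3a peaks outside clusters and at least 300 bp wide. Of those 110 peaks 32 (29.1%) had the summit in the leftmost 10% and 0 in the rightmost 10%, so this one-sided skew in genome coordinates runs through the list. Among the 17 genes the summit was in the leftmost 10% in 10, PNRC1, MXD4 and PIK3R3 included. Of the 5 genes with a peak at least 1000 bp wide only PDCD4 and DDIT4 (61.2%) had it elsewhere. The peak covered the start site in 10 of 15 genes with a listed start site, PDCD4 among them. In 13 of the 15, the summit was within 1000 bp of the start. PDCD4 had 1 peak, as had 13 of the 17 genes, while CCND1, TOB1, TP53INP1 and PIK3R3 had more.

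**Figure D4:**
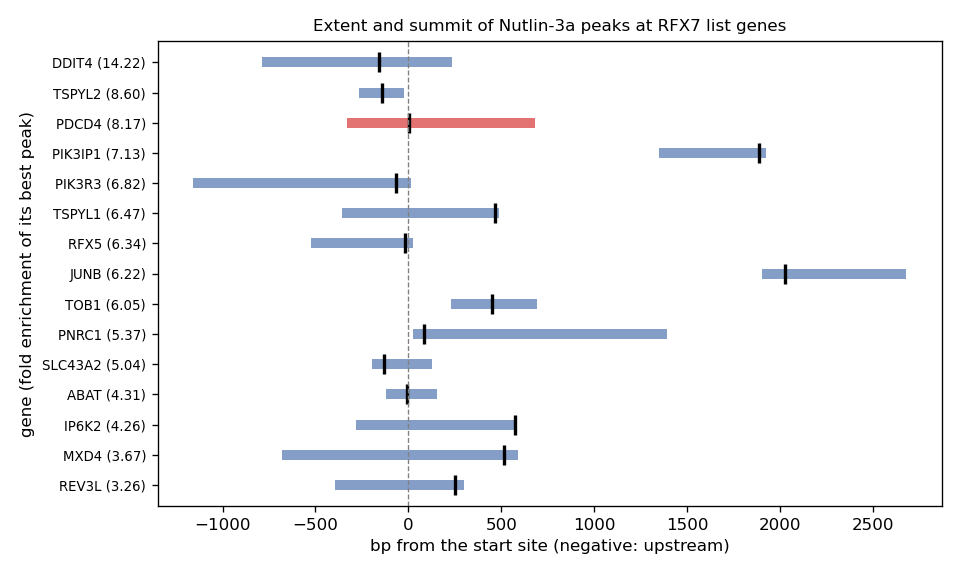
Bars show the extent of the best Nutlin-3a peak of each RFX7 list gene in bp from its start site (negative is upstream), ordered by fold enrichment, and black ticks show the summit. PDCD4 (red) has its summit at the start site with 682 bp of peak downstream, whereas in several other genes the tick sits at an edge of the bar.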

How the data were processed

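The deposited data were 2 RFX7 ChIP-seq peak lists in narrowPeak layout, 1 for each treatment. Per the submitters' processing notes, the genome build was hg38 and the tools included Trimmomatic 0.39, MACS2 2.2.7.1 and bedtools 2.29.2. The aligner, the peak caller's control and parameters, and how the 2 ChIP samples of a treatment were combined are not given in the sources used here. Fold enrichment is a ratio deposited by the authors, with no note of its denominator. The authors deposited p-values and q-values as −log10. The deposited score was the whole part of 10 times −log10 q in over 99% of peaks. Depth is unknown.

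Genes, start sites and windows came from RefSeq tables of GRCh38.p14 (20037 protein-coding genes, 22078 windows, some chromosomes not covered). All 60 list genes matched by symbol. Clusters were counted over the merged regions of both lists. Overlap means at least 1 bp. Analyses used Python 3.11.15 with pandas 2.3.3, and functions were tested on simulated data. No hypothesis test was run, because peaks are not replicates. Alternatives changed distances, thresholds, peak sets and strands. Genes were named by a rule: PDCD4, its neighbours, list genes with a peak, the 5 most alike peaks and the nearest ranks. Distances of list genes without a peak, and the SOX4, PPRC1, CDNF and GBF1 peaks, were added. Members and lists were chosen with earlier results of these data known.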

Additional observations from a re-analysis of the deposited data

How the results depend on the processing

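No paired analysis was possible because the lists carry no value of a single sample, and leaving out a replicate could not be run for the same reason. The PDCD4 counts, 1 Nutlin-3a and 0 DMSO peaks, were the same at distances of 1 to 100 kb, from the summit and with −log10 q of at least 5. The place of the peak stayed within its 95% Wilson interval, used as a yardstick only since peaks are not replicates, without chromosome Y for all 3 measures, with −log10 q in place of −log10 p, and with −log10 q of at least 5 for fold enrichment and width. It moved beyond it with other sets of peaks. By fold enrichment 96.4% of peaks lay below it, 91.1% outside clusters, 92.1% outside clusters of 10 other regions and 80.2% at protein-coding boundaries. By −log10 p these shares were 80.1%, 88.0%, 87.4% and 76.2%, and 75.4% with −log10 q of at least 5. By width they were 99.4%, 98.4%, 98.7% and 96.0%. The share of protein-coding genes with a peak was 1.03% within 1 kb, 1.16% within 5 kb, 2.85% within 50 kb and 1.09% with −log10 q of at least 5 in the Nutlin-3a list, and 0.205% within 50 kb in the DMSO list. Within 50 kb, 2 AP-1 genes and 3 cap factors had a Nutlin-3a peak. On the given strand alone, CCAAT had 1 match and GGGCGG 0. Wider windows and smaller sets change these values by construction. The comparison with boundary peaks was chosen after seeing the data. Unknown depth limits every absence of a peak.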
